A study of Mus musculus with 6 samples.

Results

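Pericytes are the contractile support cells that wrap capillaries, and 9 genes commonly used to recognise them were followed in RNA from mouse muscle. The genes were Rgs5, Cspg4, Pdgfrb, Kcnj8, Abcc9, Higd1b, Ndufa4l2, Steap4 and Mcam, taken by gene symbol, and all 9 were found among the 17030 genes of the deposited table. Mononuclear cells had been prepared from skeletal muscle, and their RNA sequenced, in 6 libraries from male C57BL/B6 mice carrying LLC tumours (Lewis lung carcinoma, a transplantable mouse tumour that causes muscle wasting). In 3 libraries the genotype was Pax7 Cre ErT x IKKbfl/fl, called Pax7-CreERT here, and in 3 it was IKKbfl/fl, called control. Both groups had floxed alleles of IKKb, the kinase that switches on canonical NF-kB signalling, carried the tumour and were given tamoxifen on days 10 to 14 after tumour cell injection. The groups thus differed in the Cre transgene, whose Pax7 driver is active in muscle satellite cells. None of the 6 libraries came from mice with Cre but no floxed alleles, or from mice free of tumour. The labels number the libraries but do not say that each is a separate mouse. The ages of the mice are not given in the sources used here.

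Pericytes share a basement membrane with capillary endothelial cells and are recruited to them by PDGF-B, which endothelial cells release and the receptor PDGFRB on pericytes binds. They regulate capillary tone through ion channels and G protein signalling. No single gene marks them exclusively: vascular smooth muscle cells carry several of the same transcripts, and among these genes Mcam is also expressed by endothelial and Schwann cells and Pdgfrb by fibroblasts. In bulk RNA, fewer cells of a type and less RNA per cell cannot be told apart.

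Ikbkb, which encodes IKKb (chromosome 8), measured 51.4, 48.4 and 52.7 CPM (the reads of a gene per 1000000 that were assigned) in Pax7-CreERT libraries and 51.3, 57.4 and 48.9 CPM in controls, with overlapping groups (log2 fold change -0.04, SE 0.13, limma adjusted p = 0.970). Which exons are floxed is not given in the sources used here, and the preparation holds other cells besides satellite cells, so this level does not check the labels. Estimated depth was 4054000 to 13355000 reads per library. Control replicate 3 stood apart, with 51.6 on the first principal component against -17.0 to 0.20 in the other 5 libraries, and with 11.6% of its CPM in 4 globin genes against 1.58% to 4.48%. Transcripts of fibres and vessels were present beside those of immune cells: the 12 myofibre genes summed to 2834, 2005 and 2046 CPM in Pax7-CreERT libraries and to 1440, 1632 and 973.2 CPM in controls, and 13 endothelial markers to 6468, 7136 and 5878 CPM in Pax7-CreERT against 6371, 7373 and 5567 CPM in control libraries.

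All 9 pericyte genes had higher means in the Pax7-CreERT libraries, with fitted folds of 1.12 to 1.41, and none passed the test across all genes. Their log2 fold changes (Pax7-CreERT minus control, on log2(CPM + 1)) ran from 0.17 to 0.49 with a median of 0.24. Over the 14763 genes tested the median was 0.09, 68.0% of genes were above 0 and 23.6% stood at or above 0.24. At an adjusted p under 0.05 in limma 0 of the 9 members passed (adjusted p = 0.891 to 0.923), where 0.00677% of all tested genes did: 1 gene, Zfp697, named after its value was seen. At an unadjusted p under 0.05, 1 of 9 members was higher, against a background of 4.58% of genes. The groups did not overlap for 2 of 9 members, Cspg4 and Abcc9, both higher in Pax7-CreERT, where 8.69% of tested genes were separated in that direction.

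**Figure D1:**
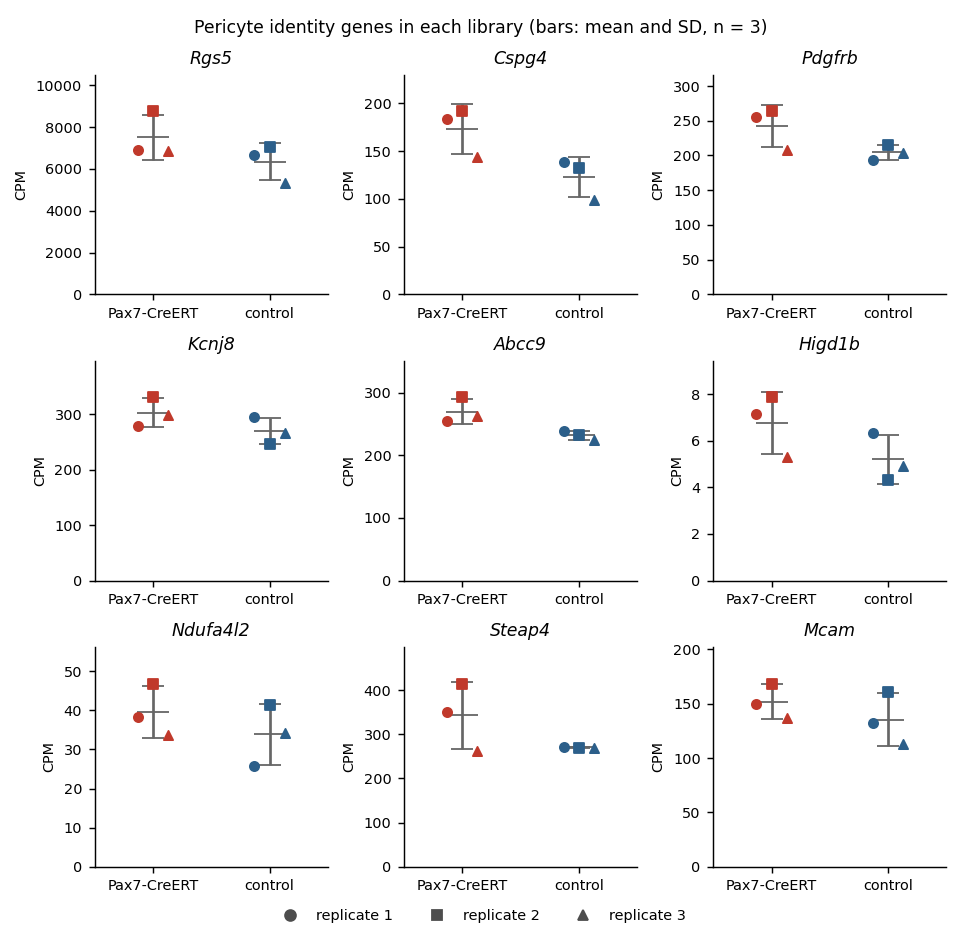
CPM of each pericyte gene in the 3 Pax7-CreERT libraries (left in each panel) and the 3 control libraries (right), with each axis starting at 0; horizontal bars are the group mean and its SD. The square of Pax7-CreERT replicate 2 is the highest point in all 9 panels, and the groups are separated only for Cspg4 and Abcc9.

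Pdgfrb encodes the receptor through which PDGF-B attracts and keeps pericytes (chromosome 18, 61045150 to 61085067, plus strand, mm10). It measured 255.7, 263.8 and 207.4 CPM in Pax7-CreERT libraries, against 194.1, 215.0 and 203.8 CPM in controls. Pax7-CreERT replicates 1 and 2 lay above every control, while replicate 3 lay between control replicates 3 and 2. Group averages of 242 ± 30.5 in Pax7-CreERT and 204 ± 10.5 CPM in control libraries (SD, n = 3 each) corresponded to 0.24 on the log2 scale (SE 0.14, limma adjusted p = 0.896), or 0.15 with TMM factors. By exact 2-sided permutation p was 0.2, and groups of 3 and 3 have 0.1 as their smallest possible p.

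Cspg4 encodes the NG2 proteoglycan, a surface molecule of pericytes and of precursor cells in other tissues (chromosome 9, 56865104 to 56899870, plus strand). Its values were 183.8, 191.8 and 143.5 CPM in Pax7-CreERT libraries and 138.6, 131.8 and 98.9 CPM in controls. The lowest Pax7-CreERT value stood just above the highest control, and the lowest of all came from control replicate 3. Its log2 fold change was 0.49 (SE 0.17, 95% interval 0.11 to 0.87, limma adjusted p = 0.891, exact permutation p = 0.1). Leaving out control replicate 3 gave 0.34, and leaving out Pax7-CreERT replicate 3 gave 0.62. The estimate was the highest of the 9 members on the deposited scale, but with quantile scaling Rgs5 was higher, at 0.45 against 0.42 for Cspg4, and with Pax7-CreERT replicate 1 and control replicate 3 both dropped Cspg4 and Steap4 were level at 0.29.

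Mcam encodes CD146, an adhesion molecule at the contact of pericytes and endothelium (chromosome 9, 44134658 to 44142726, plus strand). It gave 150.0, 168.5 and 137.2 CPM in Pax7-CreERT libraries and 132.4, 161.1 and 112.7 CPM in controls. The groups were interleaved, with control replicate 2 above 2 of the 3 Pax7-CreERT libraries. The log2 fold change was 0.17 (SE 0.16, limma adjusted p = 0.905, exact permutation p = 0.4), and it was 0.09 with TMM factors, 0.08 with array weights, 0.10 without Pax7-CreERT replicate 2, and 0.31 or 0.05 when control replicate 2 or 3 was dropped.

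Rgs5 encodes a regulator of G protein signalling that shortens vasoconstrictor responses, and it was by far the most abundant member (chromosome 1, 169655501 to 169695813, plus strand). It ranked 8 of the 17030 genes by mean CPM and made up 81.5% to 84.4% of the summed CPM of the 9 members. The values were 6911, 8759 and 6849 CPM in Pax7-CreERT libraries and 6658, 7024 and 5338 CPM in controls. Pax7-CreERT replicate 2 was high and control replicate 3 low, and the other 4 libraries lay close together with the groups mixed. Group averages were 7506 ± 1085 in Pax7-CreERT and 6340 ± 887 CPM in control libraries (SD, n = 3 each). Their log2 fold change of 0.24 had a wide 95% interval, -0.37 to 0.86, which on the linear scale is 0.773-fold to 1.81-fold (limma adjusted p = 0.923, exact permutation p = 0.3). It was 0.45 with quantile scaling, 0.15 with TMM factors, 0.13 without Pax7-CreERT replicate 2, and 0.32 or 0.12 when control replicate 2 or 3 was dropped. At 21637 to 116971 estimated reads per library the counting SD was at most 0.68%, against coefficients of variation of 14.5% among Pax7-CreERT and 14.0% among control libraries. Rgs4, a relative that also acts in mural cells, was lower per kb of transcript than Rgs5 by 20.1-fold to 27.3-fold across the 6 libraries. Of the 7 genes of this R4 RGS family in the table, Rgs5 included, 5 had higher and 2 lower means (median log2 fold change 0.18, 0.01 without control replicate 1) and 0 passed.

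Kcnj8 and Abcc9 encode the KIR6.1 pore and the SUR2 regulatory subunit of the vascular ATP-sensitive potassium channel, which couples the metabolic state of the cell to its membrane potential. The genes lie beside each other on the minus strand of chromosome 6, Kcnj8 at 142564837 to 142571614 and Abcc9 at 142587862 to 142702274. Kcnj8 measured 277.5, 330.1 and 298.8 CPM in Pax7-CreERT libraries and 293.9, 246.4 and 266.7 CPM in controls. Its groups overlapped through control replicate 1 (log2 fold change 0.17, SE 0.13, limma adjusted p = 0.899, exact permutation p = 0.2). That estimate was 0.08 with TMM factors, 0.10 when Pax7-CreERT replicate 2 was left out and 0.11 when control replicate 2 was. Abcc9 measured 254.6, 292.5 and 261.9 CPM in Pax7-CreERT libraries, against 239.0, 232.9 and 224.0 CPM in controls. Every Pax7-CreERT value of Abcc9 exceeded every control, by a small margin (log2 fold change 0.21, SE 0.12, 95% interval -0.06 to 0.49, limma adjusted p = 0.896, exact permutation p = 0.1). With TMM factors it was 0.13.

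The CPM ratio of Kcnj8 to Abcc9 lay between 1.06 and 1.23 in every library, at 1.09, 1.13 and 1.14 in Pax7-CreERT libraries and 1.23, 1.06 and 1.19 in controls. It averaged 1.12 ± 0.0263 in Pax7-CreERT and 1.16 ± 0.09 in control libraries (SD, n = 3 each; exact permutation p = 0.5, adjusted p = 0.8 over the 6 ratios compared). Per kb of transcript, Kcnj8 exceeded Abcc9 by 3.11-fold to 3.62-fold in the 6 libraries. The pore subunit of the channel in skeletal muscle fibres and beta cells, Kcnj11, averaged 1.94 CPM per kb against 112 for Kcnj8, and measured 7.46, 7.56 and 6.72 CPM in Pax7-CreERT libraries and 5.01, 5.66 and 4.19 CPM in controls. Its groups were separated (log2 fold change 0.48, limma adjusted p = 0.891), and the summed myofibre genes were higher in the same libraries; the part of muscle fibres in this was not tested. Abcc8, the SUR1 subunit, reached at most 0.974 CPM and was not tested.

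Ndufa4l2 and Higd1b encode small mitochondrial proteins enriched in pericytes. Ndufa4l2, a hypoxia-inducible relative of the respiratory chain subunit gene Ndufa4 (chromosome 10, 127514939 to 127517156, plus strand), measured 38.3, 46.9 and 33.6 CPM in Pax7-CreERT libraries and 25.7, 41.5 and 34.3 CPM in controls. Control replicate 1 was the low value, and the groups were otherwise mixed (log2 fold change 0.23, SE 0.20, limma adjusted p = 0.900, exact permutation p = 0.5). The estimate was 0.15 with TMM factors, 0.05 without control replicate 1, 0.11 without Pax7-CreERT replicate 2 and 0.39 without control replicate 2. Ndufa4 itself averaged 9.05 ± 2.31 in Pax7-CreERT and 8.38 ± 0.499 CPM in control libraries (SD, n = 3 each), and the ratio of Ndufa4l2 to Ndufa4 per kb of transcript was 2.01 to 3.08. How reads that fit several places were counted is not given, so this ratio of deposited values may not be that of the transcripts.

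Higd1b was the faintest member (chromosome 11, 102835849 to 102838039, plus strand), at 7.15, 7.86 and 5.29 CPM in Pax7-CreERT libraries and 6.35, 4.31 and 4.93 CPM in controls. Control replicate 1 lay above Pax7-CreERT replicate 3, so the groups overlapped (log2 fold change 0.32, SE 0.23, limma adjusted p = 0.899, exact permutation p = 0.2). These values stand on an estimated 20 to 105 reads per library, with a counting SD of 9.76% to 22.4%, which is of the size of the spread among libraries (19.6% in Pax7-CreERT, 20.1% in control). Its broadly expressed relative Higd1a had a lower mean, with 7.78, 10.2 and 6.51 CPM in Pax7-CreERT against 13.2, 10.5 and 9.87 CPM in control libraries (log2 fold change -0.42, limma adjusted p = 0.896). The ratio of Higd1b to Higd1a was 0.919, 0.772 and 0.813 in Pax7-CreERT libraries and 0.481, 0.410 and 0.5 in controls. This ratio was the only 1 of the 6 compared whose groups were separated (exact permutation p = 0.1, the smallest possible, adjusted p = 0.6 over the 6 ratios). Of 9 other hypoxia response genes tested, 2 had higher and 7 lower means, with -0.11 as their median log2 fold change (-0.25 without Pax7-CreERT replicate 1) and 0 passing. Bnip3, a hypoxia-induced mitophagy gene, measured 84.2, 57.1 and 97.1 CPM in Pax7-CreERT libraries and 138.9, 142.1 and 134.2 CPM in controls, with separated groups (log2 fold change -0.83, limma adjusted p = 0.891).

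Steap4 encodes a metalloreductase that reduces iron and copper (chromosome 5, 7960472 to 7982213, plus strand). It measured 350.6, 415.4 and 263.0 CPM in Pax7-CreERT libraries and 272.5, 269.7 and 270.1 CPM in controls. The controls were almost identical, with a coefficient of variation of 0.549%, below the counting SD of 3.02% in the shallowest library, while Pax7-CreERT values spread on both sides of them (coefficient of variation 22.3%). The log2 fold change was 0.32 (SE 0.17, limma adjusted p = 0.896, exact permutation p = 0.4), and it was 0.49 without Pax7-CreERT replicate 3 and 0.16 without Pax7-CreERT replicate 2. Of the other STEAP genes in the table, the reductase gene Steap3 measured 33.2, 37.1 and 30.7 CPM in Pax7-CreERT against 12.0, 23.6 and 35.8 CPM in control libraries, and Steap2 measured 10.6, 9.43 and 8.14 CPM in Pax7-CreERT against 6.35, 7.28 and 8.39 CPM in control libraries.

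**Figure D2:**
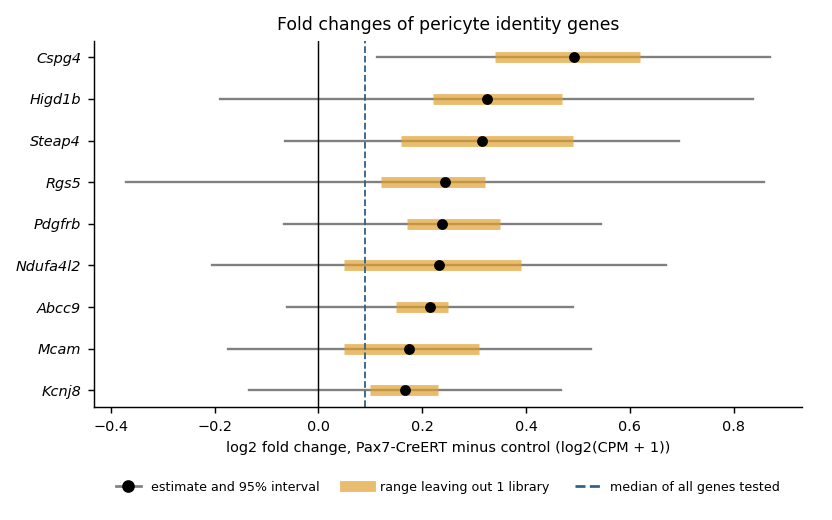
Log2 fold change of each member, Pax7-CreERT minus control on log2(CPM + 1), ordered by size; black points are estimates from all 6 libraries, grey lines their 95% intervals, orange bars the range when 1 library is left out and the dashed line the median of all 14763 genes tested. The interval of Cspg4, 0.11 to 0.87, lies above 0, the other 8 intervals include 0, and no leave-one-out estimate is below 0.

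Of the member promoters that could be read, 3 carried a match to the NF-kB consensus, the binding site of the factor that IKKb activates. Promoters, 250 bases before to 50 bases after the annotated start, were in the RefSeq table (GRCm38.p6) for 6 members: Rgs5, Cspg4, Kcnj8, Abcc9, Steap4 and Mcam. The NF-kB consensus was taken as GGGRNNYYCC, where R is A or G, Y is C or T and N is any base. Searched on both strands, it was found in 3 of these 6, and in 8.46% of all 32851 promoters of that length. The 6 promoters were 52.3% to 72.7% G or C, and no share was computed for promoters of like content. The CArG box, the site of the smooth muscle regulator SRF, was in 0 of 6, and 1.63% of all promoters. The Notch effector RBPJ's core TGGGAA was in 3 of 6 (Steap4, Kcnj8 and Abcc9), at letters apart from the NF-kB matches, and in 25.6% of all. The promoters below are those of the members whose groups were separated, Cspg4 (chr9:56864854-56865153, plus strand) and Abcc9 (chr6:142702225-142702524, minus strand), and of Steap4 (chr5:7960222-7960521, plus strand), the remaining member with a match; capitals mark the NF-kB matches as read 5′ to 3′ on the gene's strand.
Cspg4: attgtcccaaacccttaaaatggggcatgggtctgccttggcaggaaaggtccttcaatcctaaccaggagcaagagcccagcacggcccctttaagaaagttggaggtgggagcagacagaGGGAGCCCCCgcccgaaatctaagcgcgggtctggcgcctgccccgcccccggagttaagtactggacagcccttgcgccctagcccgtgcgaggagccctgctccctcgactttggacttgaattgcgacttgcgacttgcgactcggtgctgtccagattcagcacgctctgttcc
Abcc9: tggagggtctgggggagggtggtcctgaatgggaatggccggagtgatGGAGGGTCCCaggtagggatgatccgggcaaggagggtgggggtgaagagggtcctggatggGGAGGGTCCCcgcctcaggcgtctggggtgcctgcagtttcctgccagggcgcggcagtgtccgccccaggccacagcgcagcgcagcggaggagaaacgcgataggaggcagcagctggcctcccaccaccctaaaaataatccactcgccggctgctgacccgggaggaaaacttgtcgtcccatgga
Steap4: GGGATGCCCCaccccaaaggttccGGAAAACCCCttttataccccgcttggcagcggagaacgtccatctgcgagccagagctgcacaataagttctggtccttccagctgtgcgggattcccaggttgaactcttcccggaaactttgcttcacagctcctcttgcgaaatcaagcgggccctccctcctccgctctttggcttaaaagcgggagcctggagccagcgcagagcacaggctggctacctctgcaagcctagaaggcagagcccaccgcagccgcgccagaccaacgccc
The match in Cspg4 began 128 bases before the start. Abcc9 held the same 10 letters at 202 and at 140 bases before the start. Steap4 held its first match 250 and its second 226 bases before the start. The matches in Abcc9 and the second in Steap4 fit the consensus on the strand opposite the gene. A match describes the letters of the sequence, and binding was not measured.

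Set in order by CPM per kb of the longest annotated coding transcript, the members fell into 5 levels whose ranges over the 6 libraries did not overlap. Rgs5 was highest with a mean of 1690 (range 1300 to 2140). Kcnj8 at 112 (96.7 to 130) and Steap4 at 97.3 (83.3 to 132) came next and overlapped each other. Mcam at 48.1, Pdgfrb at 41.2, Ndufa4l2 at 39.3 and Abcc9 at 33.4 formed the next level with overlapping ranges, from 27.6 to 56.4. Cspg4 at 18.2 (12.2 to 23.6) and Higd1b at 8.14 (5.87 to 10.7) were lowest. The order was the same when length was taken over all annotated exons of a gene.

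**Figure D3:**
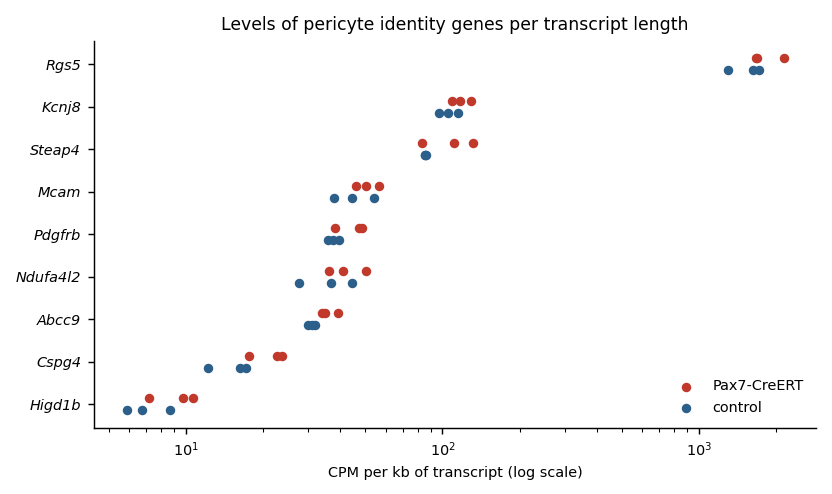
CPM per kb of the longest coding transcript (log axis) for each member, with Pax7-CreERT libraries drawn above control libraries in each row. Rgs5, with a mean of 1690, lies more than a decade above the next member, Kcnj8 at 112, and Higd1b at 8.14 is the lowest.

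The members shared one high library. Pax7-CreERT replicate 2 held the highest value of all 9 members and lay above every control for all 9. Pax7-CreERT replicate 1 lay above every control for 5 members and replicate 3 for 3. Replicate 3 lay inside the control range for 5 members. These counts were not made over all genes tested, so no background share stands beside them. The median position of the members, as log2(CPM + 1) centred on each gene's mean over the 6 libraries, was 0.08, 0.35 and -0.05 in Pax7-CreERT libraries and -0.06, -0.10 and -0.16 in controls. On the same scale other mural genes (0.19) and smooth muscle contractile genes (0.34) were also highest in Pax7-CreERT replicate 2. The high library was not particular to mural lists. Satellite cell markers (0.14) and genes of pericyte to endothelium signalling (0.10) were highest there too. Schwann cell markers stood highest at 0.13, in both Pax7-CreERT replicate 2 and Pax7-CreERT replicate 3. Fibro-adipogenic progenitor markers (0.84) and myofibre genes (1.03) were instead highest in Pax7-CreERT replicate 1. Pax7-CreERT replicate 2 was also the deepest library, with an estimated 13355000 reads, and the lowest in globin share, at 1.58%. Without it the median log2 fold change of the members was 0.15; the part of depth or blood content in this was not tested.

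Markers of the endothelial cells that pericytes attach to shared this order in part. The 13 endothelial markers stood at -0.07, 0.18 and 0.00 in Pax7-CreERT libraries and at -0.03, 0.19 and -0.19 in controls. Pax7-CreERT replicate 2 (0.18) was nearly level with their highest library, control replicate 2 (0.19). Control replicate 3 was lowest for them, as it was for the members. The members minus the endothelial markers came to 0.15, 0.18 and -0.06 in Pax7-CreERT libraries and to -0.04, -0.29 and 0.03 in controls, so the groups overlapped on this difference. Of the endothelial markers 9 had higher and 4 lower means in Pax7-CreERT libraries (median log2 fold change 0.04), and 0 passed. That median had no stable sign: it was -0.05 with TMM factors, -0.04 when either Pax7-CreERT replicate 2 or control replicate 3 was left out, and it reached 0.12 when Pax7-CreERT replicate 1 was dropped, 0.11 when replicate 3 of that group was, and 0.16 when control replicate 2 was. Satellite cell markers, the population that the Cre driver targets, had 6 of 6 tested with higher means and a median of 0.06 (-0.03 with quantile scaling, -0.02 with TMM factors, and 0.13 or 0.03 when control replicate 2 or 3 was dropped), with Pax7 at 16.7 ± 2.49 in Pax7-CreERT and 16.3 ± 5.35 CPM in control libraries (SD, n = 3 each).

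Other mural genes lay close to the members. Of 17 further pericyte and mural genes 16 were in the table, of which 14 had higher and 2 lower means in Pax7-CreERT libraries (median log2 fold change 0.21, 0.33 without control replicate 2) and 0 passed. Vtn, the vitronectin that pericytes deposit, measured 99.0, 116.5 and 82.6 CPM in Pax7-CreERT against 67.2, 72.5 and 71.3 CPM in control libraries, and its groups were separated (log2 fold change 0.48, limma adjusted p = 0.891). The intermediate filament gene Des, which muscle cells also express, measured 203 ± 32.9 in Pax7-CreERT and 142 ± 16.8 CPM in control libraries, and the transcription factor gene Foxs1 21.5 ± 2.59 in Pax7-CreERT and 16.5 ± 1.28 CPM in control libraries (SD, n = 3 each). All 12 contractile genes of smooth muscle had higher means, with a median of 0.33 (0.18 without control replicate 3) and 0 passing. Among them Cnn1, calponin, measured 16.1, 22.7 and 21.8 CPM in Pax7-CreERT against 11.5, 11.2 and 10.9 CPM in control libraries (log2 fold change 0.78, limma adjusted p = 0.891), and Myl9 407 ± 65.6 in Pax7-CreERT and 304 ± 17.7 CPM in control libraries. Acta2, smooth muscle actin, measured 391.4, 560.1 and 512.7 CPM in Pax7-CreERT against 332.5, 402.9 and 331.8 CPM in control libraries, so Pax7-CreERT replicate 1 lay within the control range.

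No gene of the signals that link pericytes and endothelium passed the test. Pdgfb, the endothelial ligand of PDGFRB, measured 204.7, 313.0 and 233.0 CPM in Pax7-CreERT libraries and 204.3, 250.2 and 247.4 CPM in controls (log2 fold change 0.08, limma adjusted p = 0.959). The second PDGFRB ligand gene, Pdgfd, averaged 76.5 ± 14.2 in Pax7-CreERT and 76.4 ± 9.55 CPM in control libraries (SD, n = 3 each). Pdgfa averaged 13.1 CPM in Pax7-CreERT and 10.9 CPM in control libraries, and Pdgfc 1.8 ± 1.09 in Pax7-CreERT and 1.43 ± 0.571 CPM in control libraries. Pdgfra, the receptor of fibro-adipogenic progenitors, the fibroblast-like cells of muscle, measured 322.3, 165.3 and 156.7 CPM in Pax7-CreERT against 147.4, 125.3 and 197.4 CPM in control libraries, with Pax7-CreERT replicate 1 standing out. Of 14 genes of pericyte to endothelium signalling, 9 had higher and 5 lower means, with a median of 0.08 (-0.01 with TMM factors, 0.16 without control replicate 2). Their log2 fold changes ran from -0.18 to 0.78. The list summed to 3440, 3837 and 3115 CPM in Pax7-CreERT libraries and to 3504, 4223 and 3214 CPM in controls. Jag1, Cdh2 and Angpt1, given next, had the smallest limma p of the list, and all were among the higher genes. Jag1, a Notch ligand, was tight within groups at 177.7, 173.3 and 172.8 CPM in Pax7-CreERT against 149.9, 145.1 and 143.3 CPM in control libraries (log2 fold change 0.26, limma adjusted p = 0.896). Cdh2, the N-cadherin of pericyte contacts, measured 7.51 ± 0.409 in Pax7-CreERT and 3.97 ± 0.497 CPM in control libraries (log2 fold change 0.78, adjusted p = 0.891), and Angpt1, the pericyte ligand of the endothelial receptor TIE2, 13.6 ± 4.48 in Pax7-CreERT and 8.92 ± 2.31 CPM in control libraries (SD, n = 3 each).

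Markers of other cells differed between the same libraries. Myofibre genes stood at 1.03, 0.16 and 0.02 in Pax7-CreERT libraries and at -0.36, -0.03 and -0.84 in controls on the centred log2 scale, with all 12 means higher in Pax7-CreERT libraries and a median log2 fold change of 0.85, which was 0.34 without Pax7-CreERT replicate 1 and control replicate 3. Fibro-adipogenic progenitor markers were high in Pax7-CreERT replicate 1 (0.84) and in control replicate 3 (0.34) and lay between -0.44 and -0.11 in the other 4 libraries. The 6 Schwann cell markers had higher means in Pax7-CreERT libraries, with a median of 0.24, which was 0.06 without control replicate 3. Erythroid genes were highest in control replicate 3 (1.72) and lowest in Pax7-CreERT replicate 2 (-1.09). Neutrophil markers had 0 higher and 5 lower means (median -0.44, -0.26 without Pax7-CreERT replicate 2 and -0.29 with a pseudocount of 4) and macrophage markers 5 higher and 2 lower (median 0.02, -0.28 without control replicate 1 and 0.59 without control replicate 3), and no gene of these lists passed. The part of these cells in the pericyte values was not tested. When the globin genes were left out of the library totals, an alternative added after the data were seen, the median of the members was 0.19.

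**Figure D4:**
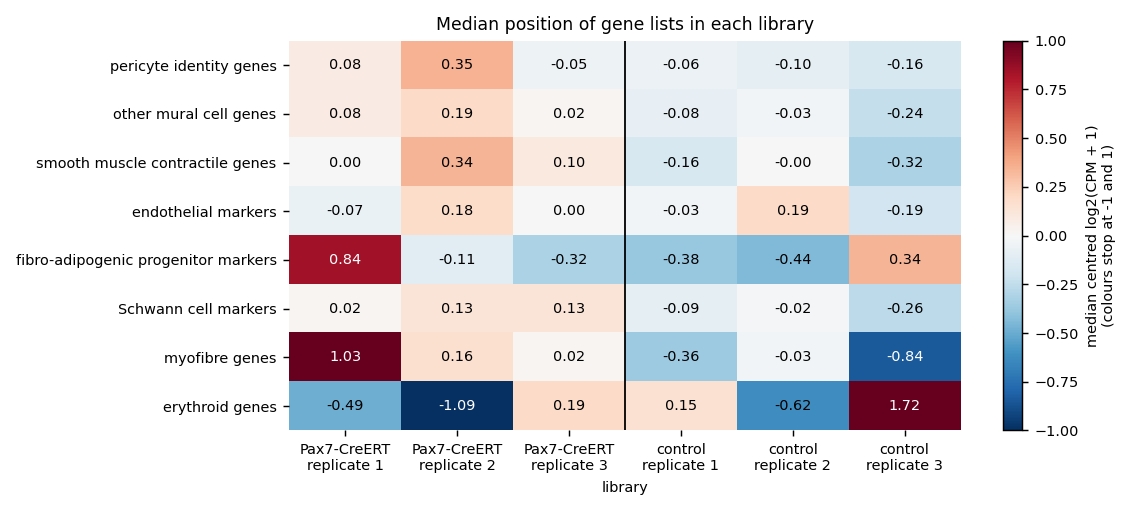
Median over each gene list of log2(CPM + 1), centred on each gene's mean of the 6 libraries, with Pax7-CreERT libraries left of the line and controls right of it. The pericyte row is highest in Pax7-CreERT replicate 2 (0.35) and lowest in control replicate 3 (-0.16). The smooth muscle row (0.34 and -0.32) and the other mural row (0.19 and -0.24) are highest and lowest in the same libraries. The Schwann cell row is highest in Pax7-CreERT replicates 2 and 3 (0.13 in both) and lowest in control replicate 3 (-0.26). The endothelial row is 0.18 in Pax7-CreERT replicate 2, 0.19 in control replicate 2 and lowest in control replicate 3 (-0.19). The progenitor and myofibre rows peak in Pax7-CreERT replicate 1 (0.84 and 1.03).

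Among 9419 other genes with a mean of at least 10 CPM, the 5 whose log2(CPM + 1) followed the mean centred profile of the members most closely were Gpx8, Synpo2, Hhip, Dusp8 and Gm13315, with Pearson's r of 0.985 to 0.996 over the 6 libraries. Gpx8, a peroxidase of the endoplasmic reticulum, measured 19.3, 21.9 and 16.3 CPM in Pax7-CreERT libraries and 15.9, 15.9 and 14.1 CPM in controls. Synpo2, an actin-binding protein of contractile cells, measured 85.4, 98.5 and 65.5 CPM in Pax7-CreERT against 64.2, 68.2 and 57.7 CPM in control libraries, and Hhip, which binds hedgehog ligands, 22.8, 30.7 and 18.1 CPM in Pax7-CreERT against 14.4, 15.9 and 13.1 CPM in control libraries. Without Pax7-CreERT replicates 1 and 2, which lie farthest from the median of the profile, r was 0.888 to 0.983 over the 4 libraries left. With so few libraries many genes come this close, and 81 had r of at least 0.95.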

How the data were processed

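RNA of muscle mononuclear cells in 6 libraries, 3 Pax7-CreERT and 3 control, was deposited by the authors as CPM. Each column sums to 1000000 plus 0.0001 per gene, so 0.0001 had been added throughout. The submitters' processing notes name Partek, DESeq2 and build mm10 without a role; aligner, counting rule and annotation are not given in the sources used here. The kit was strand-specific per the labels' protocols, but whether counting used the strand is not given. Exons of Abcc9, Ndufa4l2 and Mcam overlap a gene of the opposite strand in GENCODE (5330439B14Rik at 1.73 to 10.4 CPM, Shmt2 at 15.3 to 28.4 CPM and Gm10687 at 5.67 to 7.36 CPM), so these 3 are less certain. Coordinates are the file's, with 1 subtracted from its ends. Columns were matched to samples by the number in the title. Replicate numbers follow record order. The labels do not say that each library came from a separate mouse, so p-values measure the spread between these samples, which may be technical.

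Depth was estimated from the step between recurring low values (1 read). Of values up to 20 reads 93.1% to 94.0% were whole within 0.05 read, so counts were not recovered. Counting SDs cover read sampling alone. The comparison used limma 3.58.1 (R 4.3.3) on log2(CPM + 1) with a mean-variance trend. It covered the 14763 genes that reached 1 CPM in 3 or more libraries, with Benjamini-Hochberg adjustment and a threshold of 0.05. All 9 members passed this filter. The fold changes understate those of genes near 1 CPM. The script was tested on simulated data. Exact 2-sided permutation tests (scipy 1.17.1) served single genes and the 6 ratios. Promoter sequences are from RefSeq. The members and lists were chosen with earlier results of these data known. Eligible for naming besides the members were all genes of lists of up to 6, the 3 with the smallest p of longer lists, and the 5 most alike in pattern; which of these the text gives was decided after their values were seen. Alternatives were TMM and quantile scaling, pseudocounts of 0.1 and 4, no filter, array weights, globin genes left out of totals, and leaving out libraries.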

Additional observations from a re-analysis of the deposited data

How the results depend on the processing

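No member passed an adjusted p under 0.05 under any of 14 alternatives (limma, lowest adjusted p = 0.539). All 126 log2 fold changes of the 9 members under them were above 0, from 0.05 to 0.62. Over all genes tested, the share above 0 under these alternatives ran from 50.9% (quantile scaling) to 68.3% (Pax7-CreERT replicate 3 left out). The alternatives reuse the same libraries, so the 126 values are not independent. The median of the members was 0.15 with TMM factors, which put the median of all genes at 0.007, and 0.15 (Pax7-CreERT replicate 2 left out) to 0.34 when 1 library was left out. The count of genes at an adjusted p under 0.05 was 1 with all libraries, 0 to 1 when 1 was left out, 2 with no filter (Zfp697 and Zfp433) and 2 when Pax7-CreERT replicate 1 was dropped with control replicate 3 (Zfp697 and Prom1), the genes being named after their values were seen. At an unadjusted p it was 815, with 676 higher and 139 lower, against 386 and 299 with TMM factors; dropping Pax7-CreERT replicate 1 gave 443, dropping replicate 2 of that group gave 493, and the highest with 1 library left out was 1022. Among list medians, TMM factors gave -0.20 for hypoxia response and -0.01 for pericyte to endothelium signalling, quantile scaling gave -0.21 for hypoxia response and -0.03 for satellite cell markers, and array weights gave 0.13 for Schwann cell markers. With libraries left out, the medians ran from 0.01 to 0.18 for the R4 RGS family (0.18 with all), 0.06 to 0.30 for Schwann cell markers, -0.25 to -0.08 for hypoxia response, -0.28 to 0.59 for macrophage markers, 0.34 to 1.04 for myofibre genes, 0.12 to 0.33 for other mural genes, 0.02 to 0.16 for pericyte to endothelium signalling, -0.04 to 0.16 for endothelial markers, 0.18 to 0.39 for smooth muscle genes and -0.62 to -0.26 for neutrophil markers. The cause of these shifts was not tested. No paired analysis was possible because the replicate numbers follow record order and the columns carry none. Higd1b, at 20 to 105 estimated reads, is the member that depth limits most.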
